A study of Mus musculus with 4 samples.

Results

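The acinar secretion and saliva genes are 10 mouse genes that mark or run fluid and protein secretion in the salivary gland. They were picked by symbol for their known roles, with earlier results of these data known, and each symbol matched 1 of the 24771 features in the expression table. By role they comprise the transcription factors Bhlha15, Xbp1 and Spdef, the secreted enzyme Amy1 and the mucin Muc1, the water and ion carriers Aqp5, Slc12a2 and Ano1, and the muscarinic receptors Chrm1 and Chrm3.

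Bulk RNA-seq was performed on 2 samples of PSC-derived SG placodes and 2 samples of mouse E12.5 submandibular glands (SMGs), the embryonic gland that the placodes were made to model. The placodes were aggregates of mouse embryonic stem cells (mESCs) of the line 129w2, seeded at 3000 cells per well, with 2% growth factor reduced Matrigel from day 1. BMP4 at 2 ng/ml was added on day 3, bFGF at 25 ng/ml with retinoic acid at 1 μM on day 4, and FGF10 at 200 ng/ml on day 6, and RNA was taken on day 10. The labels name no genetic change and no further treatment in either group, and the strain of the glands and the way they were dissected are not given in the sources used here. Both groups were bulk samples of mixed cells, so that fewer cells of a type and less RNA per cell cannot be told apart.

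A salivary acinus is a cluster of secretory epithelial cells that makes primary saliva. Acetylcholine from parasympathetic nerves acts on muscarinic receptors, calcium rises in the cell, chloride that was loaded through the basolateral membrane leaves through the apical chloride channel, and sodium and water follow, the water largely through Aqp5. Protein such as amylase is folded in an enlarged endoplasmic reticulum (ER), stored in granules and released by exocytosis. In the mouse SMG at E12.5 the first buds have formed, and acini appear only later in development.

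Promoter sequences are shown for Muc1, Xbp1 and Bhlha15, because Muc1 was the tested gene higher in the placodes, Xbp1 had the highest level of all 10 genes, and Bhlha15 is a known target of XBP1. The RefSeq promoter windows used here covered 8 of the 10 genes, in 9 windows. Whether RefSeq holds promoters of the other genes was not tested. Each sequence is the 250 bases before the RefSeq transcription start on the plus strand of GRCm38.p6, at chr3:89228806-89229055 for Muc1, chr11:5520391-5520640 for Xbp1 and chr5:144190036-144190285 for Bhlha15, and capitals mark matches on either strand to CCAAT (the NF-Y box), CCACG (the end of the ER stress response element), the E-boxes CAGCTG and CATATG, and TATAAA (the TATA box).
Muc1: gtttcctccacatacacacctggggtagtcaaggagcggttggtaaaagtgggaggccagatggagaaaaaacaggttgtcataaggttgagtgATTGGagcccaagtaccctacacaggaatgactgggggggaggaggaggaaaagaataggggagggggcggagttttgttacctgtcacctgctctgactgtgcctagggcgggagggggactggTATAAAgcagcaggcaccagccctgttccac
Xbp1: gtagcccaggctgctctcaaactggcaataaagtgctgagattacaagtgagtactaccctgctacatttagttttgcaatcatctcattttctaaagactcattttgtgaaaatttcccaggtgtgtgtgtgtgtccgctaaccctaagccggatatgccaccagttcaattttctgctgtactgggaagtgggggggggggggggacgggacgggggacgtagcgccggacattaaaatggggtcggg
Bhlha15: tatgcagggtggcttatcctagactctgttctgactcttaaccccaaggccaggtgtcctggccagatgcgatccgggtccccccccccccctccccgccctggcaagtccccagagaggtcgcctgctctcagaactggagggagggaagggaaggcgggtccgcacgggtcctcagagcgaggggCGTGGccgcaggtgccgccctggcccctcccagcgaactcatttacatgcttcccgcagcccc
The Muc1 window held TATAAA from 31 to 26 bases before the start, and CCAAT on the minus strand from 156 to 152 bases before it. The Bhlha15 window held CCACG on the minus strand, from 63 to 59 bases before the start. The Xbp1 window held no match to these letters. Among the windows not shown, those of Aqp5 and Chrm3 also held CCACG, and an Amy1 window held TATAAA. Of the 32851 mouse promoter windows of the same length that were searched, 12.4% held TATAAA, 33.8% CCAAT, 28.3% CCACG, 13.0% CAGCTG and 3.46% CATATG. The full ER stress response element joins CCAAT and CCACG across a fixed spacer. It was in 0.113% of the windows searched and in none of the 9 windows of the secretion genes.

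Values are FPKM, read fragments scaled to transcript length and to the mapped reads of the sample, so that levels of different genes are per length. Sequencing depth is unknown. The FPKM of all features summed to between 361960 and 384770 per sample, and 12636 to 12807 features reached 1 FPKM in a sample. A feature was tested when its mean over the 4 samples was at least 1 FPKM. Differences are of mean log2(FPKM + 1), placodes minus SMGs, with a limma test adjusted over all 13193 tested features, and a feature was called at an adjusted p below 0.05. The groups differed widely: 76.2% of tested features were called, 35.7% higher and 40.4% lower in the placodes, with a median difference of -0.05. An exact permutation test of 2 against 2 samples cannot give a p below 0.333.

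Xbp1, Slc12a2 and Ano1 were lower in the placodes than in the SMGs, Muc1 was higher, and the other 6 genes had a mean below 1 FPKM and were not tested. All 4 tested genes were called, against the 76.2% of all tested features. Muc1 reached the minimum only through the placodes and Ano1 only through the SMGs, so these 2 genes had to differ in order to be tested. In 8 of the 10 genes every value of one group lay beyond every value of the other, with 3 genes higher and 5 lower in the placodes. This held for 77.2% of all features above 0 in at least 1 sample and for 88.4% of the tested features.

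**Figure D1:**
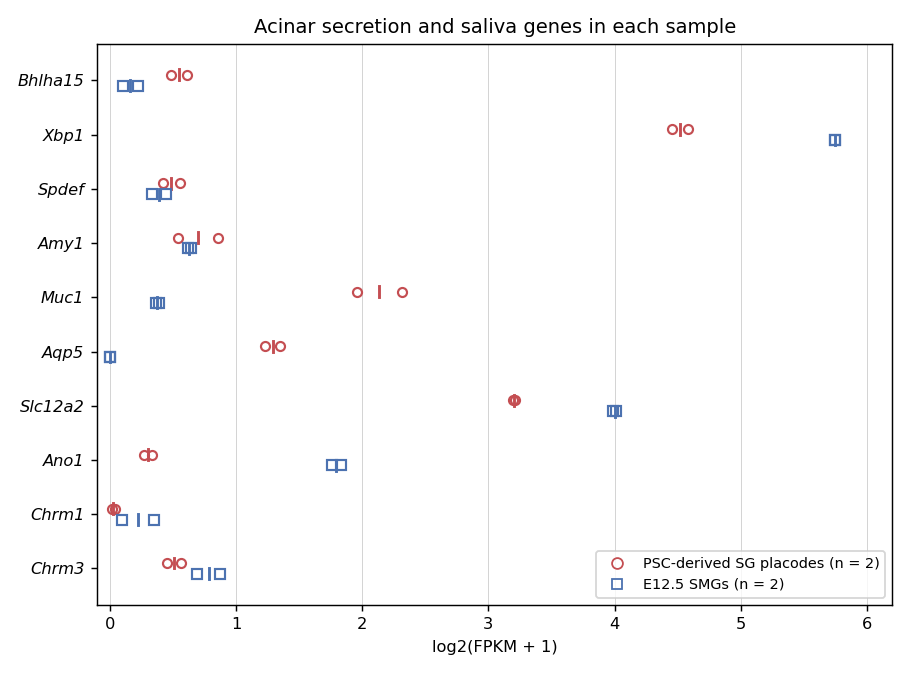
Level of each of the 10 acinar secretion and saliva genes as log2(FPKM + 1) on the horizontal axis, with circles for the 2 placode samples, squares for the 2 SMG samples and a bar at each group mean. Xbp1 and Slc12a2 lead in both groups, Muc1 and Aqp5 stand to the right in the placodes, and Ano1 stands to the right in the SMGs.

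At a level of at least 1 FPKM in both samples of a group, 4 of the genes were detected in the placodes, namely Xbp1, Slc12a2, Muc1 and Aqp5, and 3 in the SMGs, namely Xbp1, Slc12a2 and Ano1. Of all features, 50.1% reached that level in the placodes and 50.5% in the SMGs. The order in the placodes was Xbp1, Slc12a2, Muc1, Aqp5, Amy1, Bhlha15, Chrm3, Spdef, Ano1 and Chrm1, where the neighbours from Amy1 to Spdef overlapped in their sample values. In the SMGs the order was Xbp1, Slc12a2, Ano1, Chrm3, Amy1, Spdef, Muc1, Chrm1, Bhlha15 and Aqp5, where Spdef overlapped Muc1 and Chrm1 overlapped Bhlha15. The FPKM of the 10 genes summed to 37.4 and 37.0 in the placodes and to 72.7 and 71.9 in the SMGs, and most of each sum was Xbp1.

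Xbp1 (ENSMUSG00000020484, chromosome 11, 5520659 to 5525893 on GRCm38) encodes the transcription factor that enlarges the secretory ER, and its protein is made after the ER sensor IRE1 has spliced its mRNA. Its level was 22.9 and 21.0 FPKM in the placodes and 52.8 and 52.5 FPKM in the SMGs. Both SMG samples were above both placode samples, by far more than the spread within a group. The mean was 21.9 ± 1.35 FPKM (SD, n = 2) in the placodes and 52.6 ± 0.190 FPKM (SD, n = 2) in the SMGs, 2.40-fold higher in the SMGs. On the log2(FPKM + 1) scale the difference was -1.23 (SE 0.06, 95% interval -1.37 to -1.08, limma adjusted p = 6.63e-06). The values sum over the spliced and unspliced mRNA.

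Bhlha15 (ENSMUSG00000052271, chromosome 5, 144190286 to 144194441), also called Mist1, encodes a bHLH factor that shapes the granule store of serous acinar cells. It was listed at 0.530 and 0.399 FPKM in the placodes and at 0.169 and 0.0730 FPKM in the SMGs. The placode values were the higher ones, and all 4 values were low. Without a minimum level, where 58.1% of 20464 features were called, the difference of 0.39 on the log2(FPKM + 1) scale had a 95% interval of 0.15 to 0.62 and a limma adjusted p of 0.0191. The call was lost when any 1 of the 4 samples was left out, with an adjusted p of 0.0742 to 0.118. Tecpr1, an autophagy gene, lies 1 bp beyond Bhlha15 on the opposite strand and was at 8.23 and 8.47 FPKM in the placodes and 11.3 and 11.4 FPKM in the SMGs. Whether its reads entered the low Bhlha15 values was not tested.

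Spdef (ENSMUSG00000024215, chromosome 17, 27714352 to 27728955) encodes an ETS factor of mucous and goblet cells. It was listed at 0.342 and 0.467 FPKM in the placodes and at 0.258 and 0.362 FPKM in the SMGs, and the groups overlapped. The difference was 0.10 on the log2(FPKM + 1) scale, with a 95% interval of -0.14 to 0.34 without a minimum level (limma adjusted p = 0.377). With 1 sample left out it lay between 0.04 (without placode replicate 2) and 0.16 (without placode replicate 1), and it was 0.04 without SMG replicate 1 and 0.16 without SMG replicate 2.

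Muc1 (ENSMUSG00000042784, chromosome 3, 89229057 to 89233381) encodes a mucin anchored in the apical membrane of many epithelia. Its level was 2.88 and 3.97 FPKM in the placodes and 0.307 and 0.290 FPKM in the SMGs. The groups were far apart, although the placode samples differed more between themselves than the SMG samples did. The mean was 3.43 ± 0.771 FPKM (SD, n = 2) in the placodes and 0.298 ± 0.0121 FPKM (SD, n = 2) in the SMGs, 11.5-fold higher in the placodes. On the log2(FPKM + 1) scale the difference was 1.76 (SE 0.15, 95% interval 1.40 to 2.12, limma adjusted p = 7.68e-05).

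The nearest listed gene on the higher-coordinate side of Muc1, Trim46, lies 796 bp away on the opposite strand and encodes a protein of the neuronal axon. Its level was 8.63 and 9.84 FPKM in the placodes and 3.21 and 2.06 FPKM in the SMGs, a difference of 1.51 on the log2(FPKM + 1) scale (limma adjusted p = 2.51e-04). On the other side, 1969 bp away, Mtx1 was at 21.4 and 23.5 FPKM in the placodes and 24.7 and 26.7 FPKM in the SMGs. Both values of Trim46 were higher in the placodes, whereas those of Mtx1 were lower. Whether reads of Trim46 entered the Muc1 value was not tested, and the strand setting of the counting is not given in the sources used here.

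Amy1 (ENSMUSG00000074264, chromosome 3, 113555710 to 113606699) encodes salivary amylase, which digests starch. It was listed at 0.457 and 0.814 FPKM in the placodes and at 0.537 and 0.558 FPKM in the SMGs. The SMG values lay between the placode values. The difference was 0.07 on the log2(FPKM + 1) scale, with a 95% interval of -0.28 to 0.43 without a minimum level (limma adjusted p = 0.670), and it turned to -0.09 without placode replicate 2 (adjusted p = 0.190). The annotated Amy1 gene overlaps Rnpc3 by 1633 bp on the same strand, and Rnpc3, which encodes a splicing protein, was at 7.45 and 7.33 FPKM in the placodes and 8.68 and 8.71 FPKM in the SMGs. The other 5 listed amylase genes, Amy2a1 to Amy2a5 of the pancreas, were at 0 in all 4 samples. The low Amy1 values are therefore uncertain, since the share of reads from Rnpc3 or from near-identical amylase copies was not tested.

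Aqp5 (ENSMUSG00000044217, chromosome 15, 99590782 to 99594829) encodes the apical water channel of acinar cells. Its level was 1.35 and 1.55 FPKM in the placodes, and the table gave 0 for both SMG samples. The groups did not overlap, and no fold can be given against 0. Its mean over the 4 samples fell below the minimum. Without a minimum level it was called (limma adjusted p = 4.47e-04), a p that rests on the spread of the placode samples and of other features, since the SMG values had no spread.

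Aqp6, an intracellular channel known from the kidney, lies 6571 bp beyond Aqp5 on the same strand. It was at 2.64 and 2.28 FPKM in the placodes and at 0 in both SMG samples (limma adjusted p = 2.71e-05). Aqp2, the vasopressin-regulated channel 6235 bp away on the other side, was at 0 in all 4 samples. Thus Aqp5 and Aqp6 were listed above 0 in the placodes alone, and Aqp2 was not listed above 0 in either group. In each sample, 6618 to 7164 of the 24771 features were at 0. All 20 of 20 housekeeping genes were above 0 in every sample. Their lowest value was 3.57 FPKM, so they cannot speak to zeros of genes near 1 FPKM. Whether a zero is a failed estimate was not tested.

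**Figure D2:**
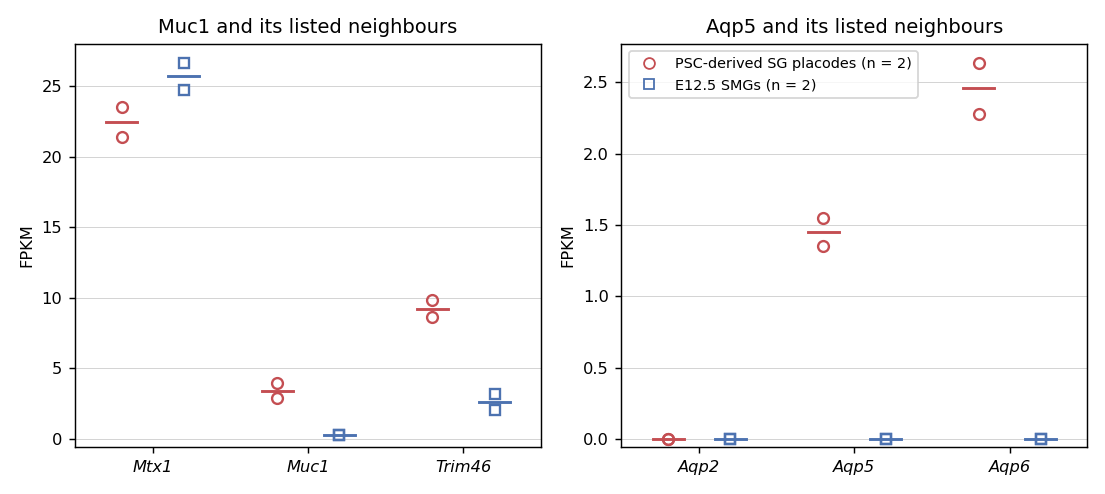
FPKM of Muc1 (left panel) and Aqp5 (right panel) with the listed gene on each side, in the order of their coordinates, with circles for the 2 placode samples, squares for the 2 SMG samples and a bar at each group mean. Trim46 is higher in the placodes as Muc1 is, and Aqp6 is at 0 in the SMGs as Aqp5 is.

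Slc12a2 (ENSMUSG00000024597, chromosome 18) encodes NKCC1, the cotransporter that loads chloride through the basolateral membrane and that many other cell types also use. Its level was 8.24 and 8.17 FPKM in the placodes and 15.1 and 14.9 FPKM in the SMGs. The samples of each group lay close together and the groups were well apart. The mean was 8.20 ± 0.0538 FPKM (SD, n = 2) in the placodes and 15.0 ± 0.167 FPKM (SD, n = 2) in the SMGs, 1.83-fold higher in the SMGs. On the log2(FPKM + 1) scale the difference was -0.80 (SE 0.07, 95% interval -0.96 to -0.64, limma adjusted p = 6.95e-05).

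Ano1 (ENSMUSG00000031075, chromosome 7, 144588549 to 144751974), also called TMEM16A, encodes the calcium-activated chloride channel of the apical membrane. Its level was 0.207 and 0.258 FPKM in the placodes and 2.39 and 2.55 FPKM in the SMGs. Both placode values were below every SMG value. The mean was 0.233 ± 0.0363 FPKM (SD, n = 2) in the placodes and 2.47 ± 0.115 FPKM (SD, n = 2) in the SMGs, 10.6-fold higher in the SMGs. On the log2(FPKM + 1) scale the difference was -1.49 (SE 0.11, 95% interval -1.77 to -1.22, limma adjusted p = 4.61e-05). Ano1, like Chrm1 and Chrm3, overlaps annotated noncoding genes on the opposite strand that were not among the listed features, and reads of such pairs cannot be told apart without strand. Chrm3 also overlaps 4 such genes on its own strand, whose reads strand would not separate.

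Chrm3 (ENSMUSG00000046159, chromosome 13, 9875486 to 10360847) encodes the main receptor for acetylcholine on acinar cells. It was listed at 0.482 and 0.372 FPKM in the placodes and at 0.835 and 0.613 FPKM in the SMGs. The groups did not overlap, but the difference of -0.27 on the log2(FPKM + 1) scale had a 95% interval of -0.55 to 0.01 without a minimum level (limma adjusted p = 0.0890). Chrm1 (ENSMUSG00000032773, chromosome 19, 8663789 to 8683587) encodes a second Gq-coupled receptor of the gland. It was listed at 0.0297 and 0.00961 FPKM in the placodes and at 0.272 and 0.0701 FPKM in the SMGs. The SMG samples differed widely from each other, and the difference of -0.19 had a 95% interval of -0.46 to 0.07 without a minimum level (limma adjusted p = 0.168). Without SMG replicate 2 the difference was -0.32 and was called (limma adjusted p = 0.0243). Without SMG replicate 1 it was -0.07 and was not called (adjusted p = 0.131), so its size rests on which SMG sample is kept.

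By distance over the 4 samples on the log2(FPKM + 1) scale, the gene most like Xbp1 was Col18a1, a basement membrane collagen, at a distance of 0.120. The gene most like Muc1 was Grin1, a subunit of the NMDA receptor of neurons, at 0.195. Slc12a2 was closest to Eya3, a transcription cofactor, at 0.0756, and Ano1 to Ell3, an elongation factor, at 0.111. Grin1 was at 3.27 and 3.66 FPKM in the placodes and 0.274 and 0.377 FPKM in the SMGs. Each of these genes is only the nearest of all tested genes over 4 samples. Whether it shares a function or a cell type with the member was not tested.

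The other genes of the secretory pathway were taken from lists of 159 genes, of which 157 were in the table and 86 were tested. Of these, 27 were higher and 50 lower in the placodes, so that 89.5% were called against 76.2% of all tested features, and their median difference was -0.54 against -0.05. Of the 86, 14 had a mean below 1 FPKM in one group and so had to differ in order to be tested. A further 23 were at 0 in all 4 samples.

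**Figure D3:**
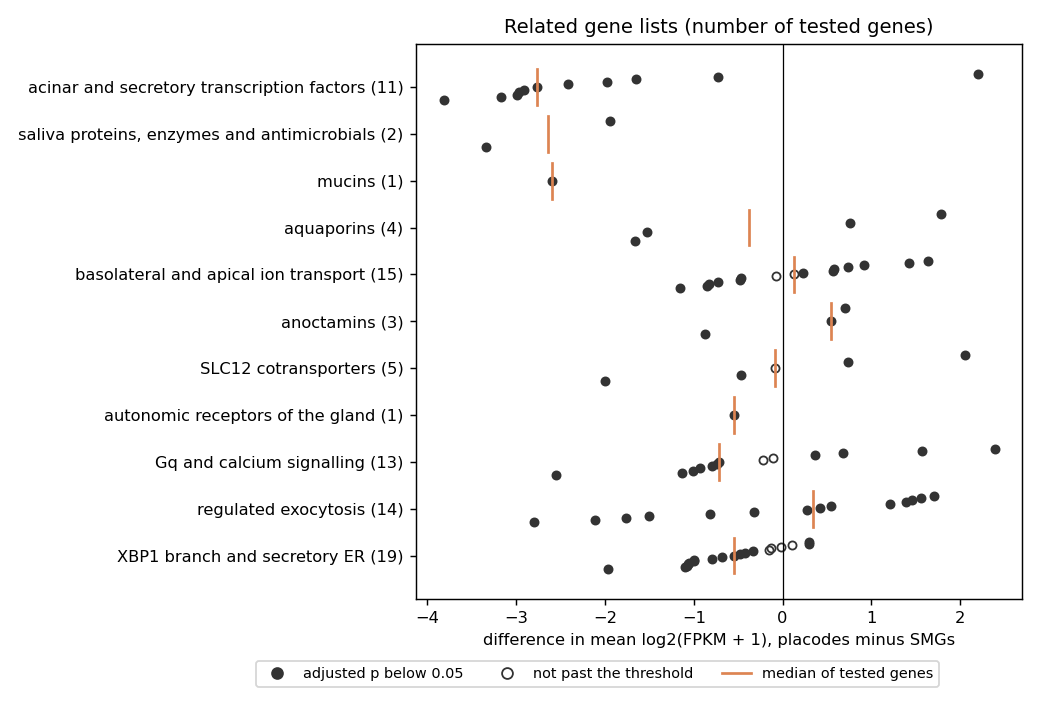
Difference in mean log2(FPKM + 1), placodes minus SMGs, of each tested gene in the lists of related genes, with filled points for an adjusted p below 0.05, open points for the others, a bar at each list's median and the number of tested genes in brackets. Most transcription factors and ER genes lie to the left, ion transport and exocytosis genes lie on both sides, and the points of Ehf, Lyz2 and Aqp6, listed at 0 in one group, depend on the pseudocount.

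Among all tested features, 35.7% were called higher and 40.4% lower in the placodes. Of 11 tested acinar and secretory transcription factors, 10 were lower and 1 was higher in the placodes, with a median difference of -2.76. The higher one was Sox9, a factor of early salivary progenitors and of several other embryonic tissues, at 42.1 and 43.0 FPKM in the placodes and 9.31 and 7.66 FPKM in the SMGs (difference 2.20, limma adjusted p = 3.66e-06). Etv4, an ETS factor induced by FGF signalling, was at 2.04 and 1.88 FPKM in the placodes and 25.7 and 25.5 FPKM in the SMGs (difference -3.17, limma adjusted p = 5.42e-07). Ehf, an ETS factor of epithelia, was at 0 in both placode samples and at 12.8 and 13.4 FPKM in the SMGs. Ehf and Elf5 reached the minimum only through the SMGs, so they had to differ in order to be tested. Most epithelium markers were also lower in the placodes, as given with the marker lists. Their part in the differences of these transcription factors was not tested.

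Of 19 tested genes of the XBP1 branch and the secretory ER, 13 were lower, 2 were higher and 4 were not called, with a median difference of -0.55. The share called, 78.9%, was near the 76.2% of all tested features. Sec24d, a coat protein of vesicles that leave the ER, was at 7.46 and 7.77 FPKM in the placodes and 31.1 and 34.4 FPKM in the SMGs (difference -1.97, limma adjusted p = 2.25e-06). Hspa5, the ER chaperone BiP, was at 145 and 151 FPKM in the placodes and 342 and 295 FPKM in the SMGs (difference -1.10, limma adjusted p = 3.97e-05). Both were lower in the placodes, as Xbp1 was. The 4 genes that were not called, Dnajb9, Dnajb11, Srp19 and Spcs3, differed by -0.02, 0.10, -0.15 and -0.14. They were named after their values were seen. The 2 higher genes, Atf6 and Sdf2l1, encode another ER stress sensor and an ER chaperone cofactor and differed by 0.30 each.

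Most saliva protein genes other than Amy1 were not listed above 0 in either group. Of 20 listed genes for saliva proteins, enzymes and antimicrobials, 13 were at 0 in all 4 samples, and 2 were tested. Both tested genes reached the minimum only through the SMGs, so they had to differ in order to be tested. Wfdc2, a secreted protease inhibitor of epithelia, was at 1.21 and 0.378 FPKM in the placodes and 16.1 and 17.2 FPKM in the SMGs (difference -3.34, limma adjusted p = 2.37e-05). Lyz2, the lysozyme of macrophages and other myeloid cells, was at 0 in both placode samples and at 3.17 and 2.55 FPKM in the SMGs. The leukocyte markers summed to 1.73 and 2.01 FPKM in the placodes and 22.8 and 19.8 FPKM in the SMGs, and their part in the Lyz2 values was not tested.

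Of 14 listed genes for other mucins and mucin glycosylation, 6 were at 0 in all 4 samples and 1 was tested. The tested gene reached the minimum only through the SMGs, so it had to differ in order to be tested. Galnt12, which begins the attachment of sugars to mucins, was at 0.246 and 0.280 FPKM in the placodes and 6.43 and 6.84 FPKM in the SMGs (difference -2.60, limma adjusted p = 3.24e-06). Of the mucins in these lists, Muc1 thus was the one with at least 1 FPKM in both placode samples.

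Of the other aquaporins, 4 of 11 were tested, with 2 higher and 2 lower in the placodes, and all 4 reached the minimum only through the group where they were higher, so that nothing can be read from the count. Aqp11, an intracellular channel, was at 1.82 and 1.86 FPKM in the placodes and 0.549 and 0.807 FPKM in the SMGs (difference 0.76, limma adjusted p = 0.00175). Aqp3, which carries water and glycerol in the basolateral membrane of epithelia, was at 0.246 and 0.250 FPKM in the placodes and 2.37 and 2.82 FPKM in the SMGs (difference -1.52, limma adjusted p = 5.81e-05). Aqp1, the water channel of endothelium and red cells, was at 1.25 and 0.702 FPKM in the placodes and 5.04 and 5.32 FPKM in the SMGs (difference -1.66, limma adjusted p = 1.17e-04). Aqp5 and Aqp1 thus differed in opposite directions, and the part of the endothelial and erythroid markers in the Aqp1 values was not tested.

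**Figure D4:**
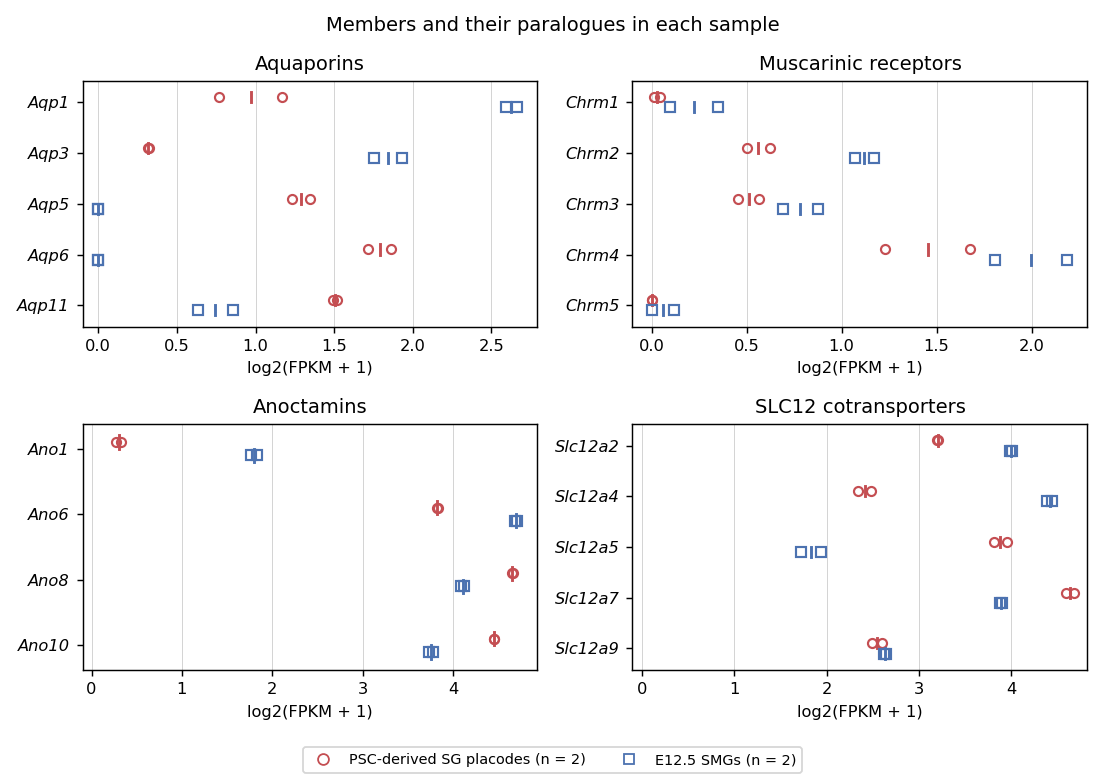
Levels as log2(FPKM + 1) of Aqp5, Chrm1 and Chrm3, Ano1 and Slc12a2 beside genes of the same families, in 4 panels, with circles for the 2 placode samples, squares for the 2 SMG samples and a bar at each group mean. Each family holds genes that are higher and genes that are lower in the placodes, except the muscarinic receptors, of which none has a higher mean in the placodes.

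Of 15 tested genes of basolateral and apical ion transport, 7 were higher, 6 were lower and 2 were not called, with a median difference of 0.13. The share called was 86.7%, against 76.2% of all tested features. Stk39, the kinase SPAK that activates NKCC1, was at 38.5 and 36.8 FPKM in the placodes and 11.7 and 11.1 FPKM in the SMGs (difference 1.64, limma adjusted p = 2.11e-06). Fxyd6, a regulator of the sodium pump, was at 50.5 and 53.8 FPKM in the placodes and 19.7 and 18.1 FPKM in the SMGs (difference 1.42, limma adjusted p = 5.36e-06). Slc4a2, an exchanger of chloride for bicarbonate, was at 7.52 and 9.57 FPKM in the placodes and 19.9 and 20.3 FPKM in the SMGs (difference -1.15, limma adjusted p = 1.31e-04). Slc12a2 and the kinase that activates its product thus differed in opposite directions.

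Among the other SLC12 cotransporters, 2 of 5 tested genes were higher, 2 were lower and 1 was not called. The share called was 80.0%, against 76.2% of all tested features. Slc12a5, the potassium-chloride cotransporter KCC2 of neurons, was at 13.1 and 14.5 FPKM in the placodes and 2.82 and 2.29 FPKM in the SMGs (difference 2.05, limma adjusted p = 1.00e-05). Slc12a4, the widely expressed KCC1, was at 4.07 and 4.59 FPKM in the placodes and 20.7 and 20.0 FPKM in the SMGs (4.70-fold higher in the SMGs, limma adjusted p = 3.42e-06). The difference was 0.74 for Slc12a7 and -0.08 for Slc12a9, the latter with an adjusted p of 0.425. Neural markers were higher in the placodes together with Slc12a5, and their part in its values was not tested.

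Of the other anoctamins, 3 of 9 were tested. Ano10 and Ano8 were higher in the placodes, by 0.70 and 0.55 on the log2(FPKM + 1) scale, and Ano6, a lipid scramblase, was lower by 0.88 (difference -0.88, limma adjusted p = 2.22e-05). These 3 genes were above 12 FPKM in every sample, whereas Ano1 did not pass 2.55 FPKM in any.

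Receptors of the autonomic nerves were low in both groups, and 1 of 12 was tested. Chrm4, a Gi-coupled muscarinic receptor, was at 1.34 and 2.19 FPKM in the placodes and 3.54 and 2.50 FPKM in the SMGs (difference -0.54, limma adjusted p = 0.0425). The call was lost under 3 other scalings, with adjusted p from 0.0511 to 0.0547, and without a minimum level (adjusted p = 0.0999). Chrm2, also Gi-coupled, was at 0.541 and 0.416 FPKM in the placodes and 1.25 and 1.10 FPKM in the SMGs and was not tested. The genes of this list at 1 FPKM or more in both placode samples were Chrm4 and the adrenergic receptors Adra1a and Adra1b. Adra1a was at 1.72 and 1.96 FPKM in the placodes and 0.0359 and 0.126 FPKM in the SMGs. Adra1b was at 1.02 and 1.39 FPKM in the placodes and 0.0993 and 0.117 FPKM in the SMGs. Both were higher in the placodes, were not tested, and were named after their values were seen.

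Of 13 tested genes of Gq and calcium signalling, 4 were higher, 7 were lower and 2 were not called, with a median difference of -0.71. The share called was 84.6%, against 76.2% of all tested features. Trpc1, a cation channel, was at 6.52 and 6.66 FPKM in the placodes and 0.392 and 0.502 FPKM in the SMGs (difference 2.39, limma adjusted p = 4.66e-06), and Plcb1, a phospholipase C downstream of Gq, differed by 1.57. Itpr3, a calcium release channel of the ER in secretory epithelia, was at 1.02 and 0.916 FPKM in the placodes and 3.18 and 3.44 FPKM in the SMGs (difference -1.13, limma adjusted p = 1.37e-04). Cd38, an enzyme that makes calcium-releasing messengers, differed by -2.55. Trpc1 reached the minimum only through the placodes, and Itpr3 and Cd38 only through the SMGs, so these genes had to differ in order to be tested.

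All 14 tested genes of regulated exocytosis were called, 8 higher and 6 lower in the placodes, with a median difference of 0.35, against 35.7% higher and 40.4% lower among all tested features. Rab3d, a GTPase of secretory granules, was at 6.60 and 6.82 FPKM in the placodes and 1.42 and 1.32 FPKM in the SMGs (difference 1.70, limma adjusted p = 1.32e-05), and Myo5a, a motor for vesicles also known from neurons, differed by 1.55. Vamp8, a vesicle SNARE of exocrine granules, was at 5.45 and 4.73 FPKM in the placodes and 41.0 and 41.9 FPKM in the SMGs (difference -2.80, limma adjusted p = 7.83e-07). Rab27a, a GTPase that tethers granules, differed by -2.11. Vamp2, Syt7 and Unc13b, which also serve synaptic vesicles, differed by 1.21, 1.39 and 1.46. Sytl2, a Rab27 effector, differed by -1.77, and all 4 were named after their values were seen. Rab27a and Sytl2 reached the minimum only through the SMGs, so they had to differ in order to be tested. The neural markers were higher and most epithelium markers lower in the placodes, as given with the marker lists, and their part in these differences was not tested.

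The cell type markers differed strongly between the groups. Among all tested features, 35.7% were called higher and 40.4% lower in the placodes. Of 12 epithelium markers, 9 were lower, 1 was higher (Krt19) and 2 were not called, and their FPKM summed to 75.6 and 81.9 in the placodes and 438 and 389 in the SMGs. Krt5, Krt14 and Krt15 were at 0 in both placode samples, so that the label of a glandular epithelium was carried there by only part of its markers. All 10 neural markers were higher in the placodes, with sums of 1114 and 1156 against 120 and 109 FPKM. All 10 mesenchyme markers were lower, with sums of 218 and 214 against 2175 and 2127 FPKM.

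**Figure D5:**
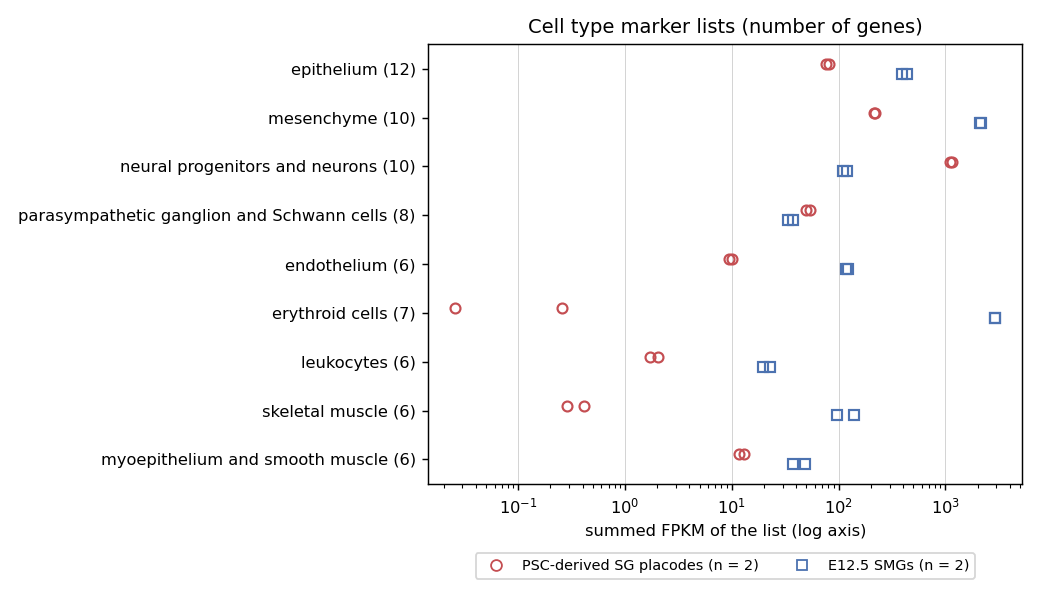
Summed FPKM of each cell type marker list on a log axis, with the number of genes in brackets, circles for the 2 placode samples and squares for the 2 SMG samples. The neural and the ganglion lists are higher in the placodes, and the other 7 lists are higher in the SMGs.

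The 6 endothelium markers were lower, with sums of 10.1 and 9.36 FPKM in the placodes and 117 and 121 FPKM in the SMGs. The erythroid markers summed to 0.0258 and 0.255 FPKM against 2932 and 2945 FPKM, with 4 of 7 at 0 in both placode samples, and the skeletal muscle markers to 0.288 and 0.410 FPKM against 140 and 96.0 FPKM. Markers of myoepithelium and smooth muscle summed to 12.9 and 11.8 FPKM against 48.5 and 37.1 FPKM. Markers of the parasympathetic ganglion and Schwann cells, the source of the acetylcholine that muscarinic receptors bind, summed to 54.0 and 49.4 FPKM against 37.8 and 33.7 FPKM, with 2 of 5 tested genes higher and 2 lower. The part of these cell types in the values of the 10 genes was not tested.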

How the data were processed

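Total RNA of 2 samples of day 10 placodes and 2 samples of E12.5 SMGs was sequenced as paired-end reads. The authors mapped the reads with HISAT2 and deposited 1 table of FPKM per gene and sample. The submitters' processing notes list the builds GRCm38 and GRCh38, and the version of HISAT2, the annotation, the strand setting and the program for FPKM are not given in the sources used here. FPKM are not counts, so depth is unknown and no counting interval is given. Groups came from the sample labels, which do not say whether replicates were separate cultures or litters, so p-values measure only the spread between these samples.

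Values were transformed as log2(FPKM + 1), with a pseudocount of 1. Features with a mean of at least 1 FPKM entered a linear model on group alone, fitted by lmFit of limma (version 3.58.1, R version 4.3.3) and moderated by eBayes with a mean-variance trend. Tests were two-sided, with Benjamini-Hochberg adjustment over all tested features. The script was tested on simulated data. Members and gene lists were chosen with earlier results of these data known. Named genes were the 10 members, up to 2 highest and 2 lowest called genes with at least a 2-fold difference in each related list, other aquaporins, muscarinic receptors, mucins, anoctamins and SLC12 genes at 1 FPKM in both samples of a group, and the nearest profile of each tested member. A gene named by this rule is not reported here. Neighbouring genes, overlaps and housekeeping genes were examined after the values were seen. Positions came from GENCODE M21 (22022 identifiers matched) and promoters from RefSeq. Promoter windows were searched for fixed letters on both strands. Other pseudocounts, scalings, minimum levels, variance models, a replicate block and each sample left out were tried.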

Additional observations from a re-analysis of the deposited data

How the results depend on the processing

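Xbp1, Slc12a2, Ano1 and Muc1 kept their direction and stayed below an adjusted p of 0.05 under every alternative in which they were tested, with highest adjusted p of 0.00128, 0.00413, 0.00303 and 0.00373. Their differences ranged from -1.29 to -1.17, from -0.87 to -0.74, from -3.36 to -1.45 and from 1.58 to 3.46. The wide ranges of Ano1 and Muc1 came from the pseudocount, which at 0.1 gave -2.95 and 3.13. It also moved the members under the minimum, which at 0.1 gave 1.38 for Bhlha15, 3.95 for Aqp5, -1.08 for Chrm1, -0.64 for Chrm3 and 0.30 for Spdef, against 0.39, 1.29, -0.19, -0.27 and 0.10. With a minimum mean of 5 FPKM, 2 members were called, because Ano1 and Muc1 were no longer tested. At that minimum 7460 of 9679 tested features were called. Without a minimum 6 members were called, with Aqp5 and Bhlha15 added, against 58.1% of 20464 features. At a detection level of 0.1 FPKM, 9 members were detected in the placodes and 7 in the SMGs. At 5 FPKM, 2 were detected in the placodes and 2 in the SMGs. The shares of all features at these detection levels are not given, so nothing can be read from these counts. Leaving out 1 sample, where the lone sample of a group is assumed to vary as the other group does, gave 3 to 4 called members (3 without SMG replicate 2, since the mean of Ano1 then fell below 1 FPKM), 72 to 74 related genes and 8622 to 9142 features. The 4 scalings moved the counts of any list by at most 1 gene in either direction. With TPM, 5074 features were higher and 4965 lower, against 4716 and 5333. Replicate numbers did not pair the samples (r = -0.03 across features between the differences of replicate 1 and replicate 2 in the 2 groups), and a replicate block left 4 members, 77 related genes and 10043 features called. Members under the minimum that were tried without it, also with a pseudocount of 0.1 or a sample left out, were alternatives chosen after seeing the data. The unknown depth limits what the low values of Amy1, Bhlha15, Spdef, Chrm1 and Chrm3 can show.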
